A study of Mus musculus with 8 samples.

Results

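The chromatin around Tal1 and Lmo2 was described in c-Kit+ bone marrow cells of mice that carried a deleted Smc3 allele, the Flt3-ITD allele, both or neither. Open chromatin had been mapped by ATAC-seq, in which the Tn5 transposase inserts sequencing adapters where DNA is accessible. All peaks were taken that overlapped mm9 chr4:114690000-114800000, which holds Tal1 at about 114729000 to 114744000 on the plus strand, or chr2:103700000-103850000, which holds Lmo2 at about 103798000 to 103822000 on the plus strand. These were 304 of 557040 peaks in the 8 deposited lists, 120 at Tal1 and 184 at Lmo2. Peaks that shared at least 1 base were joined into regions, which gave 59 of the 114533 regions of the series, 18 at Tal1 and 41 at Lmo2. Regions are named here by the distance of their centre from the approximate gene start, negative upstream.

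Each of 4 genotypes had 2 libraries. They are called here the combined genotype (labelled Smc3 fl/del Flt3-ITD), Flt3-ITD, Smc3 del/+ and control (Smc3 fl/+ without Mx1-Cre). Smc3 encodes a subunit of the cohesin ring, and Flt3-ITD is an internal tandem duplication in the Flt3 receptor kinase that makes it signal without its ligand. The combined, Flt3-ITD and Smc3 del/+ libraries are titled as carrying Mx, and their descriptions name Mx1-Cre, a recombinase driven by an interferon-responsive promoter that is switched on by PIpC and is not limited to blood cells. Mice of all 4 genotypes received PIpC, and c-Kit+ cells, 50000 per sample, were taken with magnetic beads 4 weeks later. The genotype label of the Flt3-ITD libraries names no Cre and no floxed allele. By title, each comparison of a genotype with control is also one of Mx with no Mx1-Cre. The part of Cre in those differences was not tested and cannot be told apart from genotype. The title of the combined libraries calls Smc3 heterozygous, while their genotype label has a floxed and a deleted allele. The free-text label of each Flt3-ITD library describes Smc3 mice and that of each Smc3 del/+ library describes Flt3-ITD mice, against title and genotype, which were followed here. The labels speak of individual mice, but whether replicate libraries had separate animals behind them is not stated, and p-values therefore measure only the spread between libraries. The c-Kit+ fraction is a mixture of stem and progenitor cells, and fewer cells of a type cannot be told apart from less accessible DNA in each cell.

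Tal1, also called Scl, is a basic helix-loop-helix transcription factor, and Lmo2 is a LIM-only protein that binds no DNA itself. In blood progenitors Lmo2 bridges Tal1 and its E-protein partner to a GATA factor and to Ldb1, and mice that lack either gene form no blood. Both genes are controlled by dispersed enhancers and are activated abnormally in T cell leukemia. Mouse enhancers of the 2 genes are named by their distance from the gene in kb, among them the Tal1 stem cell enhancer at +19, the Tal1 erythroid enhancer at +40 and Lmo2 elements at -64, -25 and -12. The gene starts used here are approximate and no mm9 annotation was used, so Tal1 regions are set beside these names by distance only. The point from which the Lmo2 names are counted was not checked, so no Lmo2 region is matched to a named element. No exon, intron or UTR was assigned. In gene order, Tal1 lies between Stil and Pdzk1ip1.

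Because the peak near the Tal1 start lay at another position in the combined genotype than in control, the sequence just upstream of both annotated Tal1 start sites is shown. Capitals mark the one match to the GATA-factor motif AGATAA, here on the other strand as TTATCT, and the one match to the ETS-factor motif GGAAG.
Tal1 start site 1, GRCm38.p6 chr4:115056176-115056425, plus strand: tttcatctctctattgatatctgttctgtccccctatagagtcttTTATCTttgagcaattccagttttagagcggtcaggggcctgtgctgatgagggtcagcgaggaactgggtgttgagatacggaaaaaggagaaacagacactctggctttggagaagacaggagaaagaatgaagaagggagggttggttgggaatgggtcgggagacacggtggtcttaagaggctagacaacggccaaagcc
Tal1 start site 2, GRCm38.p6 chr4:115057561-115057810, plus strand: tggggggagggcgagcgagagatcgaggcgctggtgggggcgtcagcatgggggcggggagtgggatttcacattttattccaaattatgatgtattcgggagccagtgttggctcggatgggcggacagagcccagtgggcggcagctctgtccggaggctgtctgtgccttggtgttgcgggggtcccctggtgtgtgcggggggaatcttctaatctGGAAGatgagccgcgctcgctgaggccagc
Each is the 250 bases before the start in RefSeq, and the 2 starts lie 1385 bases apart. Both strands were searched, and the motifs do not overlap each other. Of 32851 RefSeq promoter windows of the same 250 bases, 9.99% hold AGATAA, 64.1% hold GGAAG and 66.2% hold the E-box CANNTG, the kind of site that Tal1 and its partner bind. Neither Tal1 sequence holds CANNTG. A match is only a description of the sequence. Whether the mm9 peaks cover either start site or either sequence shown was not determined, since these sequences are from another build. No such sequence was available for Lmo2.

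The lists held 61953 to 80698 peaks each and carried no read numbers, so sequencing depth is unknown. The authors' score of a peak ran from 0.99 to 1 and was exactly 1 for 27.2% to 34.9% of a list. The sources used here do not say what it measures, so it is used only to rank peaks within a list, as a percentile of that list. A peak with a score of exactly 1 falls at percentile 82.5 to 86.4, because tied peaks share their middle rank. The combined genotype had the longest lists, 80698 and 80316 peaks, against 74525 and 64777 in control, and covered more of the genome, 41.5 and 41.7 Mb against 39.0 and 34.1 Mb in control. They also stand apart on the Y chromosome, with 294 and 282 peaks against 84 to 98 in the other 6 libraries. The labels give no sex, and the part of list length and sex in the differences below was not tested.

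The 2 loci differed in how constant their peaks were. At Tal1, 11 of 18 regions (61.1%) were called in every library and 1 (5.56%) in 1 library alone. At Lmo2, 8 of 41 regions (19.5%) had a peak in all 8 and 13 (31.7%) in 1. Over the series the shares were 31.5% in all 8 and 24.0% in a single one. Replicate libraries gave equal calls in all 4 genotypes at 12 of 18 Tal1 regions (66.7%), at 10 of 41 Lmo2 regions (24.4%) and at 42.7% of all regions. These shares are descriptions, since neighbouring regions are not independent. At Lmo2 the regions seen once lay upstream: 12 of the 26 upstream regions were called in 1 library, against 1 of 11 within the gene and 0 of 4 downstream. Part of the Lmo2 inconstancy came from peaks that sat side by side. When peaks within 100 bases were joined, Lmo2 had 34 regions, with 11 in all 8 libraries and 9 in 1, and Tal1 had 17 regions, with 11 in all 8.

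**Figure D1:**
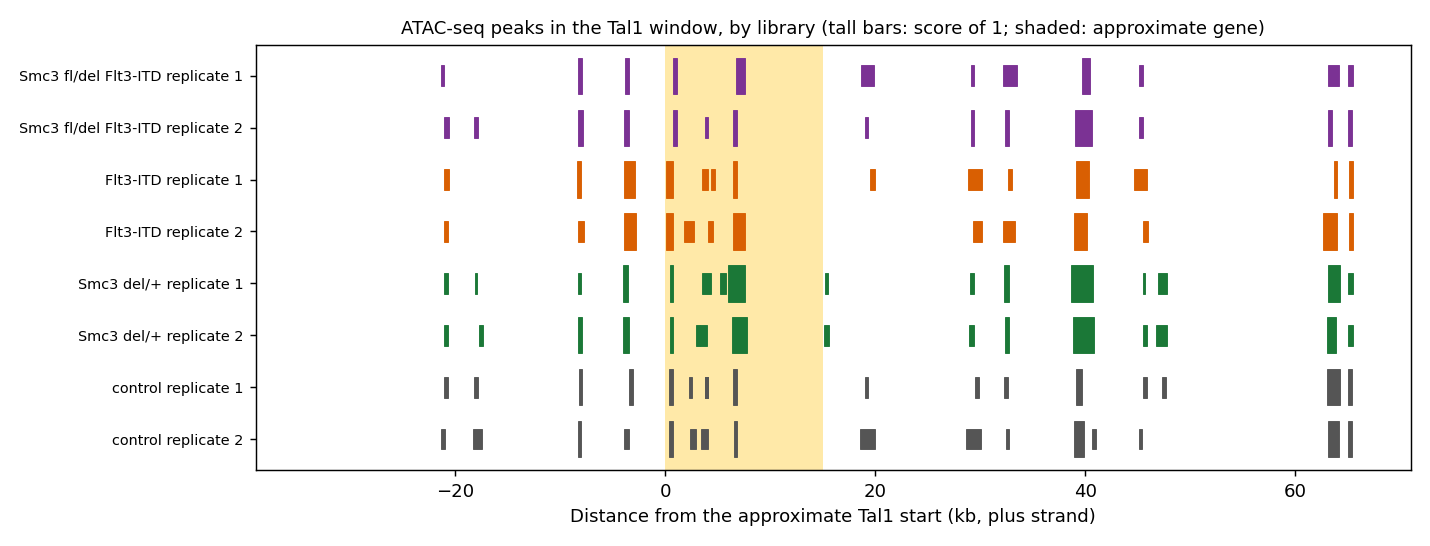
Peaks in the Tal1 window, 1 row per library and 2 rows per genotype, against distance in kb from the approximate Tal1 start. Each bar is a peak drawn to its width, a tall bar has a score of exactly 1, and shading marks the approximate gene. Peaks near -3.4, 0.6, 6.8 and 39.8 kb are in all 8 rows, and the peak near 19.3 kb is missing from both Smc3 del/+ rows.

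At the Tal1 start every library had 1 peak in the 0.6 kb region (chr4:114729014-114730116), and all 8 peaks had a score of 1. The peaks differed in position. In the combined libraries they ran from 114729748 to 114730115 and from 114729741 to 114730116. In the Flt3-ITD libraries they ran from 114729040 to 114729724 and from 114729014 to 114729752. In Smc3 del/+ libraries they ran from 114729434 to 114729731 and from 114729443 to 114729767, and in control libraries from 114729349 to 114729737 and from 114729341 to 114729722. The 2 libraries of a genotype thus lay close together. The Flt3-ITD and Smc3 del/+ peaks shared bases with the control peaks. Peak centres lay 918 and 914 bases from the region's first base in the combined libraries, 368 and 369 in Flt3-ITD, 568 and 591 in Smc3 del/+ and 529 and 518 in control. The combined peaks began just downstream of where the control peaks ended, and shared no base with them.

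How often such a shift occurs was counted over the series, a comparison chosen after these peaks were seen. A region was called displaced where all 4 libraries of a genotype pair had peaks, the 2 peaks of each genotype shared bases and no peak of one genotype shared a base with a peak of the other. For the combined genotype against control this held for 1 of 21 Tal1 and Lmo2 regions, the Tal1 start, and for 0.588% of regions over the series. For Flt3-ITD against control it held for 0 of 22, with 0.553% over the series, and for Smc3 del/+ against control for 0 of 17, with 0.497%. For the combined genotype against Flt3-ITD it held for 1 of 23 (0.55% over the series), the Lmo2 region at 43.6 kb, and against Smc3 del/+ for 1 of 18 (0.619%), the Tal1 region at 45.3 kb. The count against Flt3-ITD was 0 with peaks of the upper 50% or with lists of equal length. That against Smc3 del/+ was 0 with the upper 50%. The count against control was 1 in both settings. Neither setting could remove the Tal1 start peaks, which all had a score of exactly 1, so that count is no check of the shift. Shifts between the 2 libraries of a genotype were not counted, and they occurred at Lmo2 43.6 kb and at Tal1 45.3 kb. At Lmo2 43.6 kb the Smc3 del/+ peaks, 103841531 to 103841909 and 103841135 to 103841510, shared no base. At Tal1 45.3 kb the control peaks, 114774521 to 114774921 and 114774116 to 114774434, shared none either. With 2 libraries a side the counts above are without a test.

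The Tal1 start peak was also wider in Flt3-ITD. It covered 368 and 376 bases in the combined libraries, 685 and 739 in Flt3-ITD, 298 and 325 in Smc3 del/+ and 389 and 382 in control. The Flt3-ITD values stood above all 6 others, which lay between 298 and 389 bases. The -3.4 kb region (chr4:114724956-114726220) was also widest in Flt3-ITD, with 377 and 469 bases in the combined libraries, 1021 and 1200 in Flt3-ITD, 495 and 590 in Smc3 del/+ and 339 and 406 in control. Here too both Flt3-ITD libraries were above the other 6. The control peaks, 114725568 to 114725906 and 114725096 to 114725501, shared no base with each other. Each Flt3-ITD peak, 114725086 to 114726106 or 114725021 to 114726220, reached over both places. In Flt3-ITD relative to control, the bases covered were higher by 1.58 on the log2 scale (SE 0.37, 2.98-fold) at -3.4 kb and by 0.88 (SE 0.21, 1.85-fold) at 0.6 kb, with limma's adjusted p = 0.689 for both after Benjamini-Hochberg adjustment over 36101 regions. The combined genotype relative to Flt3-ITD gave -1.40 (SE 0.37, limma's adjusted p = 0.684) and -0.94 (SE 0.21, limma's adjusted p = 0.62). None of these 4 differences passed the threshold of 0.05. With the Flt3-ITD and Smc3 del/+ labels exchanged, as the free text has them, the -3.4 kb values were 0.54 and -0.36. The 0.6 kb values then changed sign, to -0.31 and 0.26.

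Within the Tal1 gene the 6.8 kb region (chr4:114734948-114736750) was called in all 8 libraries, each with a peak of score 1. Peaks covered 814 and 442 bases there in the combined libraries, 367 and 1183 in Flt3-ITD, 1668 and 1369 in Smc3 del/+ and 422 and 301 in control. Both Smc3 del/+ libraries were above the other 6, and the 2 Flt3-ITD libraries were far apart. In Smc3 del/+ relative to control the difference was 2.08 on the log2 scale (SE 0.68, 4.24-fold, limma's adjusted p = 0.604), which did not pass, and 0.89 with those labels exchanged. The neighbouring 2.3 kb region (chr4:114730766-114731885) had no peak in the combined and Smc3 del/+ libraries, 0 and 1009 bases in Flt3-ITD and 285 and 539 bases in control. Peaks stood 649 to 650 bases away from it in the combined libraries, but as close as 50 bases in Smc3 del/+.

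The widest Tal1 region lay at 39.8 kb (chr4:114767632-114770028), the distance of the erythroid enhancer. It was called in all 8 libraries, and every library had a peak of score 1 there. Peaks covered 701 and 1613 bases in the combined libraries, 1285 and 1182 in Flt3-ITD, 2120 and 1990 in Smc3 del/+ and 525 and 1359 in control. Both Smc3 del/+ values were the highest of the 8, while the other genotypes overlapped. For the 2 genotypes with altered Smc3 relative to the 2 without, the difference was 0.53 on the log2 scale (SE 0.39, limma's adjusted p = 0.906).

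The region at 19.3 kb (chr4:114747572-114749000), the distance of the stem cell enhancer, was less constant. It covered 1225 and 285 bases in the combined libraries, 479 and 0 in Flt3-ITD, 0 and 0 in Smc3 del/+ and 290 and 1429 in control. Both combined and both control libraries thus had a peak, 1 Flt3-ITD library did, and neither Smc3 del/+ library did. Their scores were at percentiles 58.2 and 63.6 in the combined libraries, 0.15 in the Flt3-ITD library and 40.4 and 32.2 in control. The nearest Smc3 del/+ peaks lay 3018 and 3050 bases away, at 15.3 kb (chr4:114744140-114744553), where only the Smc3 del/+ libraries had peaks, of 356 and 414 bases at percentiles 11.8 and 38.2. No peak of either region had a score of 1. Among peaks in the upper 50% of their list, the 19.3 kb region was left in 2 libraries and the 15.3 kb region in none.

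The other Tal1 regions were mostly shared. Those at -21.0, -8.1, 29.4, 32.8, 45.3, 63.5 and 65.3 kb were called in all 8 libraries. At 29.4 kb, peaks covered 274 and 299 bases in the combined libraries, 1300 and 854 in Flt3-ITD, 361 and 415 in Smc3 del/+ and 386 and 1480 in control. For the 2 genotypes with altered Smc3 relative to the 2 without, this was -1.42 on the log2 scale (SE 0.46, limma's adjusted p = 0.828), with all 4 libraries on the Smc3 side at or under 415 bases and 1 control library at 386. The -17.9 kb region was called in 5 libraries and in no Flt3-ITD library, the 3.8 kb region in 7, the 47.2 kb region in 3 and the 5.5 kb region in 1.

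**Figure D2:**
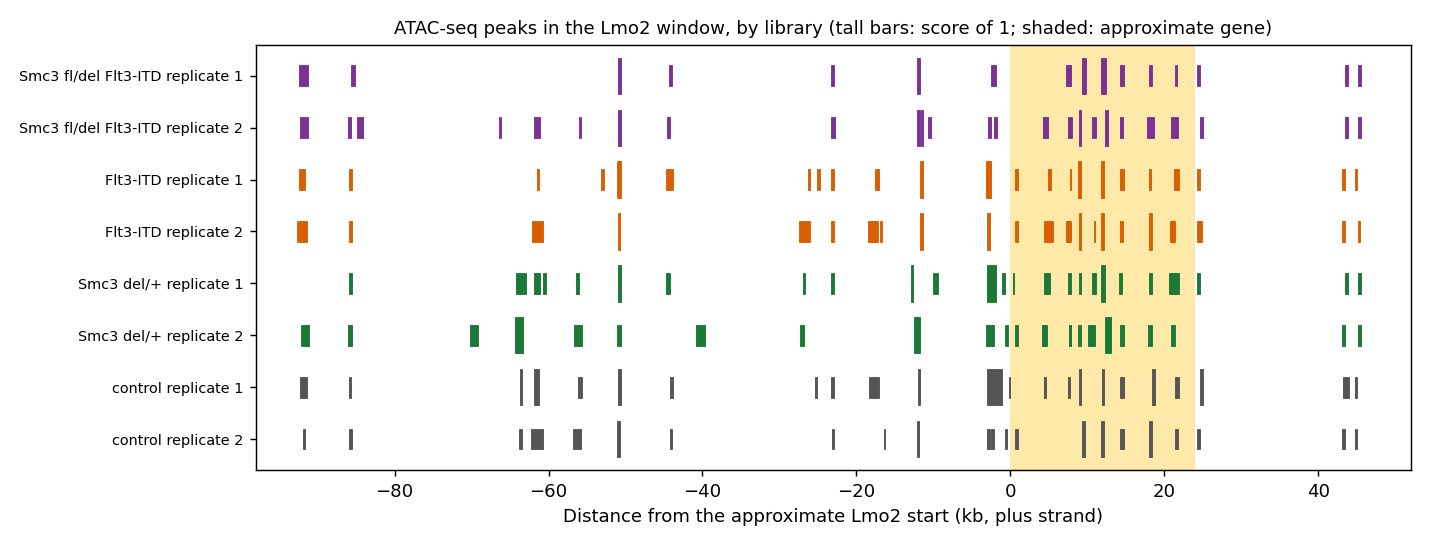
Peaks in the Lmo2 window, drawn as for Tal1, against distance in kb from the approximate Lmo2 start. Peaks of score 1 recur near -50.8, -11.9 and 12.4 kb, and the peak near -63.6 kb is in the Smc3 del/+ and control rows and absent from the combined and Flt3-ITD rows.

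One Lmo2 region split the libraries by the Flt3-ITD allele, at -63.6 kb (chr2:103733703-103735022). No peak was called there in either combined or either Flt3-ITD library, against 1190 and 1032 bases in Smc3 del/+ and 338 and 444 bases in control. All 4 libraries without the Flt3-ITD allele thus had a peak and all 4 libraries with it had none. The 4 peaks were at percentiles 72.3 and 86.3 in Smc3 del/+ and 84.6 and 45.2 in control, and 2 of them had a score of 1. The nearest peak of a combined library lay 1068 to 12009 bases away and that of a Flt3-ITD library 880 to 1419 bases away. This was 1 of 15 Lmo2 regions and 1 of 28 regions at both loci that all 4 libraries of either side called. Over the series 2.5% of such regions were lost in this way and 1.92% were gained, so 1 of 28 is close to what was found elsewhere. If the free-text labels were followed instead of titles and genotypes, the 4 libraries without a peak would be those with altered Smc3.

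At -26.7 kb (chr2:103770553-103772011) the single genotypes had peaks and the other 2 did not. No peak was called in either combined library, against 351 and 1440 bases in Flt3-ITD, 163 and 454 bases in Smc3 del/+ and none in control. The 4 peaks had low ranks, at percentiles 37.2 and 15.7 in Flt3-ITD and 6.69 and 7.8 in Smc3 del/+. They were not all at 1 place. The Flt3-ITD replicate 1 peak ran from 103771661 to 103772011. It shared no base with the Smc3 del/+ peaks, which ran from 103771130 to 103771292 and from 103770712 to 103771165. Only the Flt3-ITD replicate 2 peak, of 1440 bases, joined them into a region. One control library had a peak 557 bases away, in the -25.1 kb region that was also called in 1 Flt3-ITD library. Of 30 regions at both loci called in all 4 libraries of either side, this was the only one lost in the combined and control libraries relative to the Flt3-ITD and Smc3 del/+ libraries, a pattern found in 0.0968% of regions over the series, while the opposite pattern was found in 0.813%. Among peaks in the upper 50% of their list, 0 libraries had a peak there.

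Nearer the Lmo2 gene, the -11.9 kb region (chr2:103785435-103786686) was called in 7 libraries. Peaks covered 367 and 734 bases in the combined libraries, 381 and 354 in Flt3-ITD, 0 and 813 in Smc3 del/+ and 286 and 343 in control. The library without a peak, Smc3 del/+ replicate 1, had one of 354 bases and score 1 in the adjoining region at -12.8 kb, 12 bases away, so every library had a peak of score 1 at this place. Peaks at 9.0 kb in 6 libraries and at 9.5 kb in the other 2 lay 27 bases apart in the same way, as did those at 44.9 kb in 3 libraries and at 45.4 kb in the other 5, 72 bases apart. The region at the approximate Lmo2 start, at -0.1 kb, held a single peak of 127 bases in 1 control library.

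The widest Lmo2 region, at -2.1 kb (chr2:103794812-103796900), was called in all 8 libraries. Peaks covered 627 and 765 bases in the combined libraries, 663 and 422 in Flt3-ITD, 1180 and 1031 in Smc3 del/+ and 1930 and 798 in control. All 4 libraries with the Flt3-ITD allele were below the 4 without it. The difference was -0.95 on the log2 scale (SE 0.41, limma's adjusted p = 0.823), which did not pass the threshold. The region holds up to 2 peaks per library, and the centre of the widest one lay 1142 and 1226 bases from its first base in the combined libraries, 331 and 402 in Flt3-ITD, 720 and 604 in Smc3 del/+ and 1124 and 340 in control.

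Within Lmo2, the 12.4 kb region (chr2:103809776-103811033) had a peak of score 1 in every library. It covered 596 and 383 bases in the combined libraries, 414 and 418 in Flt3-ITD, 522 and 699 in Smc3 del/+ and 193 and 342 in control. Both control libraries were below all 6 others. The peaks were not all at 1 place. The Smc3 del/+ replicate 2 peak ran from 103810335 to 103811033 and the combined replicate 2 peak from 103810337 to 103810719. Neither shared a base with the control peaks, which ended at 103810126 and 103810139. In Smc3 del/+ relative to control the difference was 1.23 on the log2 scale (SE 0.37, 2.35-fold, limma's adjusted p = 0.535). In the combined genotype relative to control it was 0.90 (SE 0.37, 1.86-fold, limma's adjusted p = 0.9999), and neither passed the threshold. The other Lmo2 regions called in all 8 libraries lay at -85.6, -50.8, 14.5, 18.3, 21.2 and 43.6 kb.

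**Figure D3:**
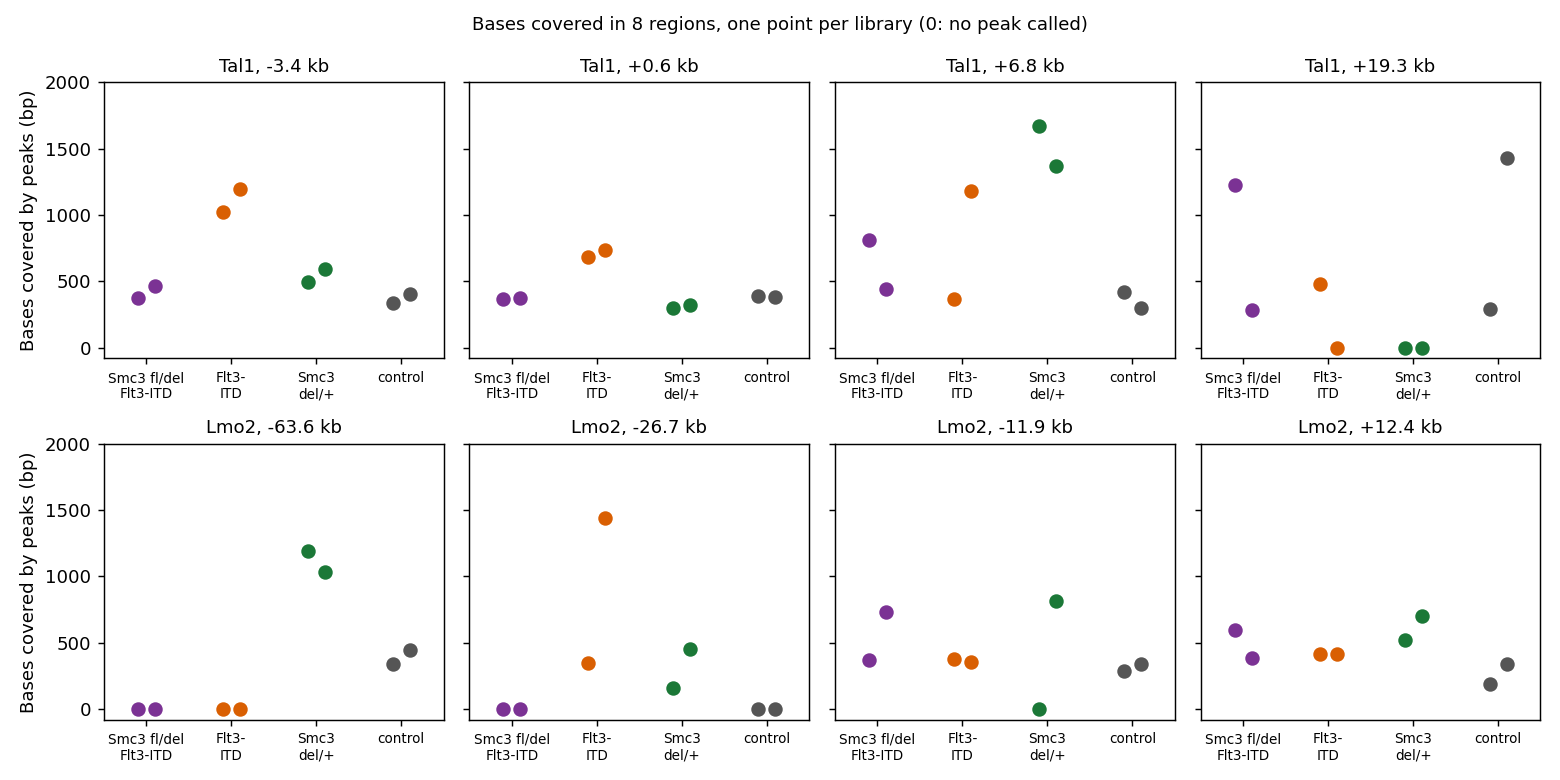
Bases covered by peaks (bp, linear axis) in 4 Tal1 and 4 Lmo2 regions, with 1 point per library, 2 libraries per genotype and 0 where no peak was called. The Flt3-ITD points are highest at Tal1 -3.4 and 0.6 kb, and at Lmo2 -63.6 kb the combined and Flt3-ITD points are at 0.

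Calls were then compared between pairs of genotypes, with a region gained where the first genotype had a peak in both libraries and the second had none, and lost in the opposite case. No test was made, since with 2 libraries against 2 an exact permutation p cannot fall below 0.333. The 3 comparisons with control share its libraries, so their counts are given side by side. In the combined genotype relative to control, 1 region was gained and 3 were lost of 34 regions that one of the genotypes had in both libraries, which is 11.8% against 20.2% over the series (14.2% gained, 6.0% lost). The lost regions were Tal1 2.3 kb, Lmo2 -63.6 kb and Lmo2 44.9 kb, and the gained one was Lmo2 45.4 kb. In Flt3-ITD relative to control, 1 was gained and 3 were lost of 38, which is 10.5% against 12.3% over the series (4.42% gained, 7.85% lost). The lost regions were Tal1 -17.9 kb, Lmo2 -63.6 kb and Lmo2 -56.2 kb, and the gained one was Lmo2 -26.7 kb.

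In Smc3 del/+ relative to control, 4 regions were gained and 3 were lost of 40, or 17.5% against 11.1% over the series (3.02% gained, 8.04% lost). The gained regions were Tal1 15.3 kb, Lmo2 -26.7 kb, Lmo2 10.6 kb and Lmo2 45.4 kb, and the lost ones were Tal1 2.3 kb, Tal1 19.3 kb and Lmo2 44.9 kb. The calls at Lmo2 44.9 and 45.4 kb are side by side, and with peaks within 100 bases joined all 8 libraries had a peak there. With that joining, relative to control, 1 region changed in the combined genotype, 4 in Flt3-ITD and 4 in Smc3 del/+. With peaks of the upper 50% alone, 0 changed in Smc3 del/+ relative to control. Shares over the series were not counted under these 2 settings.

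The combined genotype relative to Flt3-ITD had 0 gained and 3 lost of 34 regions, or 8.82% against 16.0% over the series (13.0% gained, 2.96% lost). All 3 were at Lmo2, at -26.7, -17.7 and 0.8 kb. Relative to Smc3 del/+ it had 1 gained and 4 lost of 37, or 13.5% against 25.7% over the series (19.7% gained, 5.95% lost). The gained region was Tal1 19.3 kb, and the lost ones were Tal1 15.3 kb, Tal1 47.2 kb, Lmo2 -63.6 kb and Lmo2 -26.7 kb. The split into gained and lost turned under some settings, for which shares over the series were not counted. With peaks of the upper 50% alone there was 1 gained and 1 lost relative to Flt3-ITD. Relative to Smc3 del/+ there were 2 gained and 1 lost. Without combined replicate 1 there were 5 gained and 3 lost relative to Flt3-ITD, and 4 gained and 4 lost relative to Smc3 del/+. For the altered Smc3 allele across both Flt3 states, 0 of 27 regions had peaks in every library on one side and no library on the other, against 0.311% gained and 0.394% lost over the series.

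**Figure D4:**
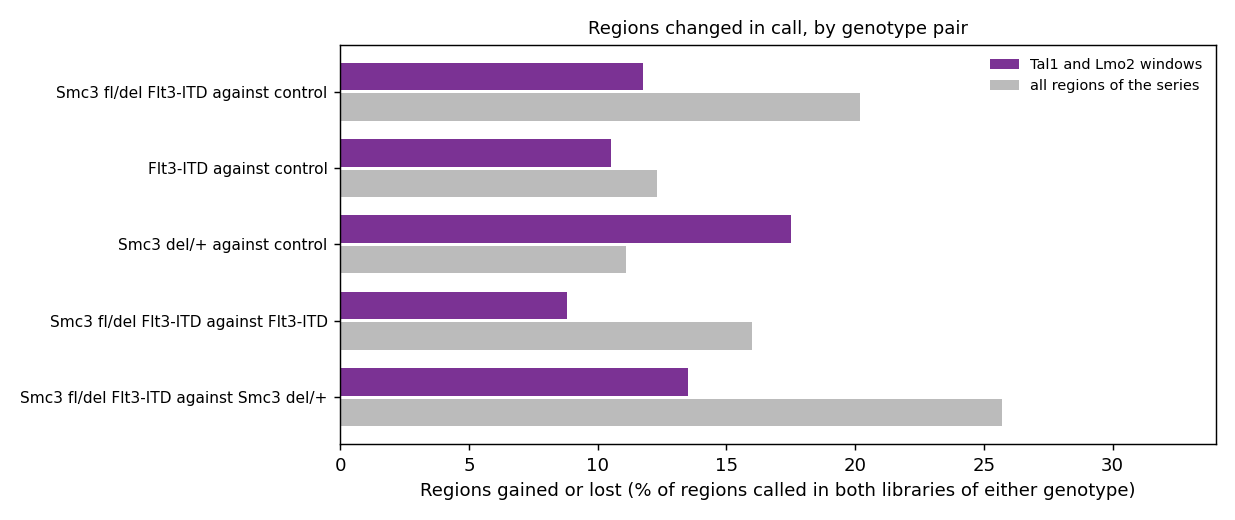
Share of regions gained or lost (percent of the regions that one of the genotypes had in both libraries) in 5 genotype pairs, at the Tal1 and Lmo2 windows and in all regions of the series. The loci were below the series in 4 pairs and above it in Smc3 del/+ against control, with 17.5% against 11.1%.

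The total accessible length was lowest in the combined genotype at Tal1. Peaks covered 7.66 and 6.53 kb of the 110-kb Tal1 window in the combined libraries, 9.18 and 10.9 kb in Flt3-ITD, 10.7 and 10.5 kb in Smc3 del/+ and 6.76 and 10.4 kb in control. Means were 7.09 ± 0.81, 10.0 ± 1.2, 10.6 ± 0.18 and 8.58 ± 2.57 kb in that order of genotypes (SD, n = 2 each). The combined values lay below those of both single genotypes, but the control libraries were far apart, 1 below and 1 above the combined mean. The combined and control libraries were then contrasted with the Flt3-ITD and Smc3 del/+ libraries. The permutation shuffled all 8 libraries freely, so its p does not test whether the 2 alleles add up. Means of the 2 sides were 7.84 ± 1.77 and 10.3 ± 0.78 kb (SD, n = 4 each). Their difference was -2.49 kb (two-sided exact permutation p = 0.0571, adjusted p = 0.92 over all 16187 windows of this length), and 3.39% of those windows had an exact p under 0.05. Without control replicate 2 it was -3.34 kb, with an exact permutation p of 0.0286, the smallest such a test of 7 libraries can give. Leaving out any other library gave -2.87 to -2.05 kb, with an exact permutation p of 0.0571 without Flt3-ITD replicate 1 and 0.114 in the other 6 cases, and as a share of the library's covered bases the p was 0.143.

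The Flt3-ITD allele and altered Smc3 had smaller differences at Tal1. The 4 libraries with the Flt3-ITD allele covered 8.56 ± 1.89 kb and the 4 without it 9.60 ± 1.90 kb (SD, n = 4 each; exact permutation p = 0.457, adjusted p = 0.847, with 7.13% of windows under 0.05). The 4 libraries with altered Smc3 covered 8.86 ± 2.09 kb and the other 4 covered 9.30 ± 1.84 kb (exact permutation p = 0.771, adjusted p = 1.0, with 3.26% of windows under 0.05). Neither difference exceeded the spread between libraries. That for the Flt3-ITD allele, -1.04 kb, was -1.98 to -0.358 kb with a library left out and -0.0258 kb with peaks of the upper 50% alone.

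At Lmo2 the 2 libraries of each genotype also lay apart. Peaks covered 7.87 and 12.5 kb of the 150-kb window in the combined libraries, 9.82 and 13.4 kb in Flt3-ITD, 12.6 and 14.3 kb in Smc3 del/+ and 12.4 and 9.60 kb in control. Both Smc3 del/+ values lay above both combined and both control values, and the other genotypes overlapped. The difference of the libraries with the Flt3-ITD allele from those without it was -1.31 kb (exact permutation p = 0.457, adjusted p = 0.835, with 7.45% of 12771 windows under 0.05), and -2.18 to -0.298 kb with a library left out. For altered Smc3 it was 0.51 kb (exact permutation p = 0.8, adjusted p = 1.0, with 3.52% of windows under 0.05). For the contrast of the combined and control libraries with the single genotypes it was -1.93 kb (exact permutation p = 0.171, adjusted p = 0.937, with 3.5% of windows under 0.05).

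**Figure D5:**
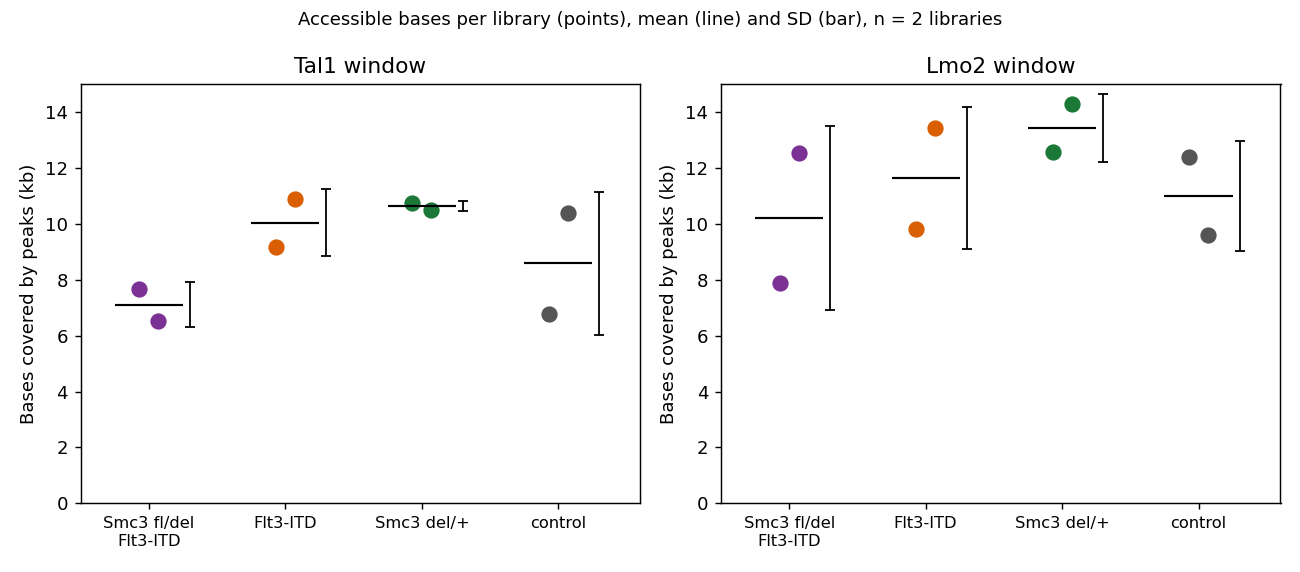
Bases covered by peaks (kb, axis from 0) in the Tal1 and Lmo2 windows. Points are libraries, lines are means and bars are SD (n = 2 libraries per genotype). At Tal1 the combined points, 7.66 and 6.53 kb, lie below all Flt3-ITD and Smc3 del/+ points.

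Width was tested in the 19 regions called in all 8 libraries, 11 at Tal1 and 8 at Lmo2, as log2 of the bases covered. In each of 3 contrasts over all 8 libraries and in each of 5 genotype pairs, limma called 0 of 19 at an adjusted p under 0.05, and 0 of 36101 regions over the series (0.0%). At an unadjusted p under 0.05 there were 2 of 19 for the Flt3-ITD allele, 3 for altered Smc3 and 1 for the contrast of the combined and control libraries with the single genotypes, against 6.12%, 5.47% and 7.14% of all regions. The Tal1 start region accounted for one each of the first and second, with 0.57 (SE 0.15, limma's adjusted p = 0.704) for the Flt3-ITD allele and -0.62 (SE 0.15, limma's adjusted p = 0.789) for altered Smc3. The Tal1 region at -3.4 kb was the one of the last, with -0.97 (SE 0.26, limma's adjusted p = 0.59). In Flt3-ITD relative to control, 9 of 11 Tal1 regions and 3 of 8 Lmo2 regions covered more bases, with median log2 differences of 0.55 and -0.12, against 57.7% of regions and a median of 0.07 over the series.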

How the data were processed

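ATAC-seq peak lists of 8 libraries, 2 for each of 4 genotypes, were used as deposited by the authors: chromosome, start, end, name, score and strand. Reads were aligned with Bowtie to mm9, per the submitters' processing notes. The peak caller, its threshold and the Bowtie version were not stated in the sources. The deposited score is the authors' own, and lists hold no read counts, so no interval for counting error can be given. An interval repeated within a list (1550 in all) was counted once when bases were covered.

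Peaks of all lists were merged into regions at an overlap of 1 base or more with Python 3.11.15, and calls and covered bases were tabulated. Covered bases per window were compared over libraries with exact two-sided permutation tests, adjusted (Benjamini-Hochberg) over all windows of the same length in the genome. Width was fitted on log2 covered bases with limma 3.58.1 (trend) in R 4.3.3, adjusted over 36101 regions; the script was tested on simulated data. Positions are 1-based. Named regions were those nearest the gene start, gained or lost in a pair, the 5 widest called in all libraries of each window and the 2 with the smallest p per contrast and window; others are named by place only. The alternatives tried were the upper 50% of peaks, equal list lengths, joining within 100 bases, leaving out a library, exchanged labels, centring or rescaling, and a replicate block. The members, lists and tests were chosen with earlier results of these data known.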

Additional observations from a re-analysis of the deposited data

Results flagged for a closer look

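The Lmo2 region at -26.7 kb was singled out because the 2 alleles had opposite outcomes on different backgrounds. The 4 libraries of the single genotypes, Flt3-ITD and Smc3 del/+, all had a peak there, and no combined or control library did. The Flt3-ITD replicate 1 peak shared no base with the Smc3 del/+ peaks. Only the Flt3-ITD replicate 2 peak joined them into a region. The difference between backgrounds was not tested. The 4 peaks had low scores for their lists, at percentiles 6.69 to 37.2, and a control library had a peak 557 bases away.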

How the results depend on the processing

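Calls changed in the windows depended on the peaks entering. Shares of changed calls over the series were not counted under these settings, so the counts cannot be set beside the series. With each list kept to its upper 50% by score they were 2 in the combined genotype against control, 1 in Flt3-ITD against control, 0 in Smc3 del/+ against control and 3 in the combined genotype against Smc3 del/+. With lists of equal length they were 6 in the combined genotype against Flt3-ITD and 8 against Smc3 del/+. With peaks within 100 bases joined they were 1 in the combined genotype, 4 in Flt3-ITD and 4 in Smc3 del/+ against control. With the Flt3-ITD and Smc3 del/+ labels exchanged they were 7 and 4 against control, and 5 and 3 in the combined genotype against each. Leaving out a library gave 8 in the combined genotype against control whichever was left out, 6 to 11 in Flt3-ITD and 10 to 14 in Smc3 del/+ against control, and 7 to 8 against Flt3-ITD and 8 to 12 against Smc3 del/+ in the combined genotype, more because one library then decides a call. The count of displaced regions in the combined genotype against control was 1 under both settings run, which were chosen after seeing the data. Neither setting could remove the Tal1 start peaks, which all had a score of exactly 1, so this count is no check of the shift. Against Flt3-ITD the count was 0 in both, and against Smc3 del/+ it was 0 with the upper 50% and 1 with equal lists.

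Covered length at Tal1 for altered Smc3 was 0.642 kb with the upper 50% and 0.197 kb with equal lists (-1.29 to 0.33 kb with a library left out). The Tal1 contrast of combined and control with the single genotypes was -2.06 kb (exact permutation p = 0.0286) with the upper 50%, -74.1 ppm (exact permutation p = 0.143) as a share of the library's covered bases, and -3.34 to -2.05 kb with a library left out (exact permutation p = 0.114 in 6 of 8 cases). The Flt3-ITD allele at Tal1 gave -0.0258 kb with the upper 50% and -1.98 to -0.358 kb with a library left out; at Lmo2 it gave 0.508 kb with exchanged labels and -2.18 to -0.298 kb with a library left out. Altered Smc3 gave -0.128 kb with equal lists, -1.31 kb with exchanged labels, -1.81 ppm as a share of the library's covered bases, and -0.319 to 1.82 kb with a library left out. The Lmo2 contrast of combined and control with the single genotypes was 0.535 kb with the upper 50%. The causes were not tested.

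Width calls were 0 under every setting run. With exchanged labels the log2 width differences turned to -0.62 at the Tal1 start and -0.82 at Tal1 45.3 kb for the Flt3-ITD allele, to 0.57 at the Tal1 start and 0.0219 at Tal1 29.4 kb for altered Smc3, and at the Tal1 start to -0.31 in Flt3-ITD against control and 0.26 in the combined genotype against Flt3-ITD. They shrank to 0.54 and -0.36 at Tal1 -3.4 kb in the same pairs, to -0.44 at Tal1 29.4 kb in the second, to 0.89 at Tal1 6.8 kb and 0.70 at Lmo2 12.4 kb in Smc3 del/+ against control, and to 0.18 at Lmo2 12.4 kb for altered Smc3. Replicate numbers were treated as shared names only. In the 36101 regions called in all 8 libraries, width deviations of same-numbered libraries correlated at -0.0133 to 0.0086. Calls and list lengths were not compared in this way, so a shared batch is not excluded. With a replicate block the width calls stayed at 0, and exact permutation within numbers gave p = 0.5, 0.833 and 0.0556 at Tal1 and 0.444, 0.778 and 0.222 at Lmo2 for the Flt3-ITD allele, altered Smc3 and the contrast with the single genotypes, for the same differences of -1.04, -0.447, -2.49, -1.31, 0.508 and -1.93 kb. A fit without one library of a genotype assumes that the other varies like the rest. Depth is unknown, so no absent peak shows closed chromatin.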
